A study of Mus musculus with 8 samples.

Results

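The transcription factors that set the enteroendocrine fate, 9 of the 54532 genes listed, were followed in mouse intestinal organoids with and without RANKL. They were taken by symbol after the Ensembl identifiers of the count table had been matched to gene names, by a rule that uses no measured value. The members were Neurog3, Neurod1, Isl1, Pax6, Pax4, Nkx2-2, Insm1, Rfx6 and Lmx1a, and each was present in the table. Organoids are small spheres of gut epithelium grown from crypts in a gel, and the study asked how RANKL, the ligand of the receptor RANK, acts on this epithelium. The series held 8 libraries of small intestinal organoids, 4 control and 4 RANKL-treated, read by 3′ messenger RNA sequencing. The study's mouse lines were kept on a C57BL/6J background, and organoids were grown from crypts in Matrigel in medium with EGF, NOGGIN and R-spondin, which both groups shared. The genotype, age and number of donor animals, and the RANKL dose and duration of these libraries, are not given in the sources used here. Nothing in the labels says that the 4 libraries of a group came from separate animals or cultures, so p-values measure the spread between these libraries, which may be technical.

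Enteroendocrine cells are the rare hormone-secreting cells of the gut epithelium. They arise from secretory progenitors in which Notch signalling is low and the basic helix-loop-helix (bHLH) factor ATOH1 is active, and NEUROG3 then switches on for a short time and commits the cell. NEUROD1, PAX4, PAX6, ISL1, NKX2-2, INSM1, RFX6 and LMX1A act with or after it, and steer the choice among hormone-producing subtypes.

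The libraries held 583663 to 7807298 counts, a 13.4-fold range, so that 1 count was worth 0.128 CPM (reads scaled to a common library total) at the greatest depth and 1.71 CPM at the lowest. The shallowest were control replicate 4 and RANKL replicate 1. Pooled by group, control libraries held 16214577 and RANKL libraries 5763309 counts, so raw counts cannot be compared directly between groups. Levels below are CPM on library totals scaled by the trimmed mean of M values (TMM), and differences were tested with edgeR's quasi-likelihood test. Of 9971 genes that passed its filter on low counts, 2587 had an adjusted p under 0.05 in RANKL against control, with 1355 higher (13.6%) and 1232 lower (12.4%). The background against which the members are read is therefore 25.9% of tested genes called. For the check of tissue, all 8 enteroendocrine markers were detected, and their summed level was 595 to 731 CPM in control and 583 to 704 CPM in RANKL libraries. Most of that sum was Chgb, at 514 to 657 and 505 to 612 CPM, and of the 8 markers 4 passed the filter on low counts and 0 were called. Markers of M cells and of stem cells moved with the treatment. The summed level of M cell markers was 50.3 to 59.0 CPM in control and 1830 to 2080 CPM in RANKL libraries, where 6 of 6 tested were higher and the mature marker Gp2 was at 0. Of 6 stem cell markers 4 were lower. Of 7 goblet cell markers 0 were called, with sums of 2790 to 3440 CPM in control and 3140 to 3410 CPM in RANKL libraries. Of 6 tested Paneth cell markers 1 was lower, and of 7 enterocyte markers 1 was higher and 1 lower. Only 1 of 7 tuft cell markers was tested, and it was not called. Islet markers gave 24 counts in all, with Ins2 and Ppy at 0, and stroma and immune markers gave 65, with Dcn and Cd3e at 0. Markers of enteric neurons and glia summed to 16.9 to 34.0 CPM in control and 16.5 to 29.1 CPM in RANKL libraries, with Sox10 and Uchl1 at 0. The part of these cell types in the results below was not tested. In bulk RNA, fewer cells of a type and less RNA per cell cannot be told apart.

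None of the 9 factors was called. Neurog3, Neurod1 and Lmx1a passed the filter on low counts, and 0 of these 3 had an adjusted p under 0.05, against 25.9% of all tested genes. The 6 others had too few counts for the fit. Between the groups, 0 of the 3 tested members were free of overlap in CPM, against 24.6% of tested genes. The same held for 0 of all 9 members, 6 of which were outside that background. With so few tested members, a count of 0 says little by itself, and the intervals of the individual genes carry the result.

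Neurog3 and Neurod1 encode bHLH factors. Such factors bind the E-box, the letters CANNTG, as dimers with E proteins, and ID proteins block that binding. The 250 bases before the RefSeq start of the 3 tested members are shown because the genes that encode these dimer partners appear further below. They are from RefSeq on GRCm38.p6 and read 5′ to 3′ on the gene's strand, with E-boxes in capitals. Neurog3 (chr10:62132840-62133089, plus strand), Neurod1 (chr2:79456637-79456886, minus strand) and Lmx1a (chr1:167689308-167689557, plus strand) each hold 1 E-box, with different inner letters. The gene positions given further below are from GENCODE and span all its transcripts, so the Lmx1a window lies inside that span and the Neurod1 window reaches into it.
Neurog3: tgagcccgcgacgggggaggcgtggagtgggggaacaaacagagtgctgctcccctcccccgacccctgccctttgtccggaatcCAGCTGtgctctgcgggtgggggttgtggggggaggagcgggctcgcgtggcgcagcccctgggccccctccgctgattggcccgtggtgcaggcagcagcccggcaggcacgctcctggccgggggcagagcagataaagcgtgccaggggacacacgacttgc
Neurod1: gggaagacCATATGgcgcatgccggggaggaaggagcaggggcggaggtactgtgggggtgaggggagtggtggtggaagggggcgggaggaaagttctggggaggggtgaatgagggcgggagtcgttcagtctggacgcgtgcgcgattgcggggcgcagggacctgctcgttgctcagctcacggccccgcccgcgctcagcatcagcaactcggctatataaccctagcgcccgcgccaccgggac
Lmx1a: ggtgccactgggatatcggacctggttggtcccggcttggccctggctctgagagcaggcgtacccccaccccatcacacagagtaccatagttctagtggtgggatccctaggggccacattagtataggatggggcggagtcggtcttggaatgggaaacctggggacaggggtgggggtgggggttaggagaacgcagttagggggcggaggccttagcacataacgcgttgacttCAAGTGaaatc
CANNTG is the same on both strands, and 66.2% of 32817 RefSeq promoter windows of this length hold it. A window was matched for 7 of the 9 members, 8 windows in all, and 6 of the 8 held an E-box. Nkx2-2 had 3, and Rfx6 and 1 of the 2 Pax6 windows had 0. A site of Nkx2-2 was CAGATG on the opposite strand, which reads CATCTG on the gene's strand, a form held by 14.5% of all windows. A match describes letters and says nothing of binding.

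Neurog3, the factor that commits progenitors to the lineage, is a gene on chromosome 10 (GRCm38, 62133090 to 62134763, plus strand). In control libraries 1 to 4 it had 96, 53, 63 and 7 counts, which were 12.2, 14.2, 16.0 and 12.0 CPM. RANKL libraries 1 to 4 had 15, 17, 30 and 22 counts, or 24.2, 11.7, 15.6 and 12.1 CPM. One library, RANKL replicate 1, stood above all others, and the remaining 7 overlapped. The group means were 13.6 ± 1.85 and 15.9 ± 5.81 CPM (SD, n = 4 each). The log2 fold change of Neurog3 was 0.09 (SE 0.24, edgeR adjusted p = 0.82), and the 95% interval of the fold ran from 0.761 to 1.49. An exact two-sided permutation test of mean CPM gave p = 0.686, or 0.804 adjusted over the 41 named genes. The log2 fold change was -0.06 without RANKL replicate 1 and -0.01 without control replicate 1, so that its sign rested on single libraries.

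Neurod1, a bHLH factor downstream of NEUROG3 that lasts into mature hormone cells, lies on chromosome 2 (79452521 to 79456751, minus strand). Its control libraries held 116, 44, 49 and 5 counts, or 14.8, 11.8, 12.4 and 8.60 CPM. The RANKL libraries held 7, 17, 22 and 14 counts, or 11.3, 11.7, 11.5 and 7.69 CPM. Of the 4 control libraries 3 lay above every RANKL library, and the groups overlapped through control replicate 4. Mean levels were 11.9 ± 2.54 CPM in control and 10.5 ± 1.91 CPM in RANKL libraries (SD, n = 4 each). Its log2 fold change was -0.30 (SE 0.25, edgeR adjusted p = 0.40), with a fold of 0.810 and an interval of 0.570 to 1.15. The exact permutation p was 0.314, adjusted 0.477. An exon of Cerkl on the same strand overlaps Neurod1.

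Lmx1a, a LIM homeodomain factor of serotonin-producing enterochromaffin cells, lies on chromosome 1 (167689237 to 167848741, plus strand). Controls had 95, 65, 45 and 4 counts, or 12.1, 17.4, 11.4 and 6.88 CPM. RANKL libraries had 8, 22, 31 and 34 counts, or 12.9, 15.1, 16.2 and 18.7 CPM. Of the 4 control libraries 3 lay below every RANKL library, and control replicate 2 lay among the RANKL values. The means were 12.0 ± 4.33 and 15.7 ± 2.39 CPM (SD, n = 4 each). For this difference the log2 fold change was 0.32 (SE 0.23, edgeR adjusted p = 0.34), with a fold between 0.896 and 1.74 at 95%. By the exact permutation test p was 0.200, adjusted 0.328. Tph1, which encodes the serotonin-synthesizing enzyme of the gut, stood at 8.92 ± 4.96 CPM without and 14.8 ± 2.51 CPM with RANKL, with a log2 fold change of 0.44 (SE 0.26, edgeR adjusted p = 0.23). Its groups overlapped, at 1.72 to 12.9 and 12.4 to 17.8 CPM. Counts pooled by group gave Tph1 a ratio of 1.31 (exact 95% interval 0.995 to 1.71, counting error alone).

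**Figure D1:**
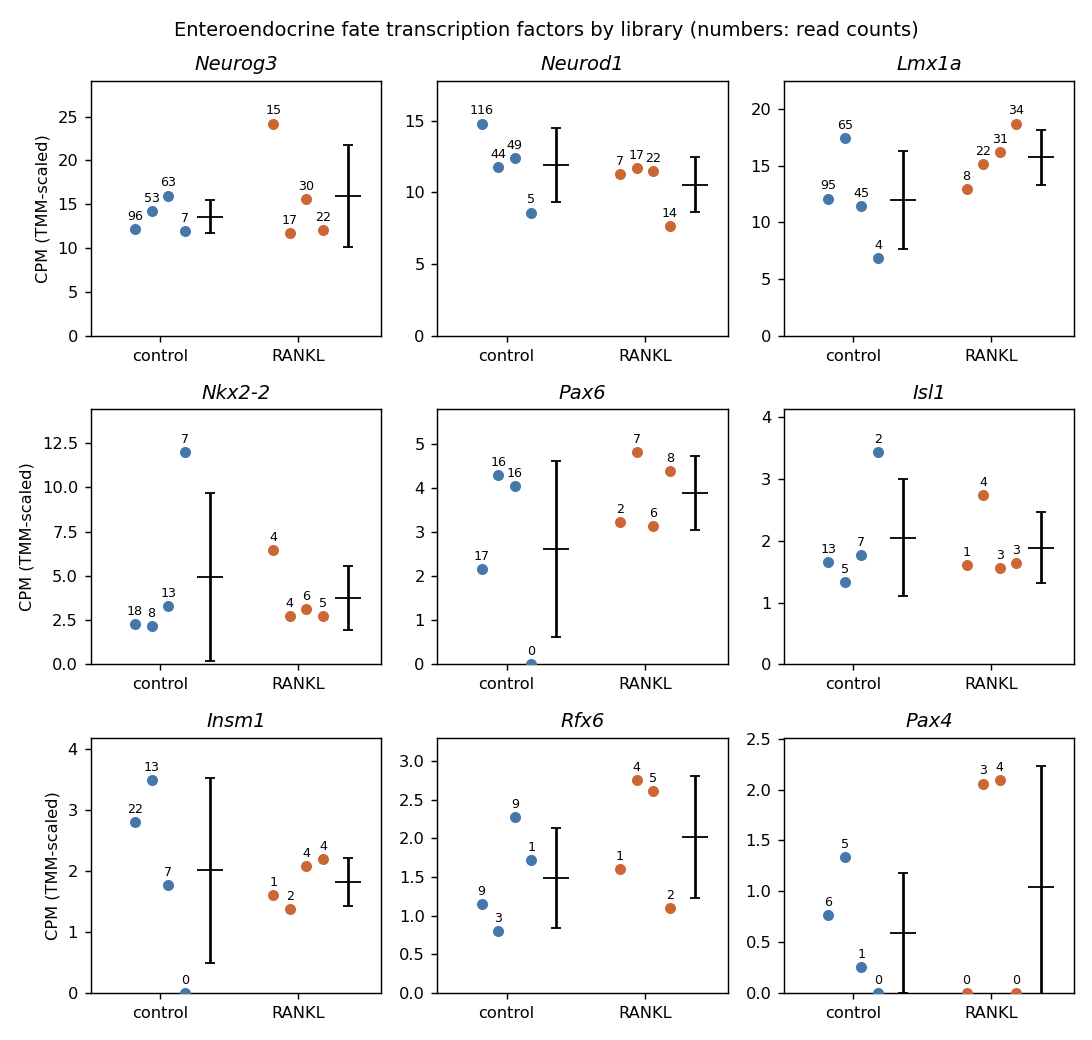
Each panel plots 1 gene, with the TMM-scaled CPM of 4 control (blue) and 4 RANKL (orange) libraries in replicate order from left to right, the read count above each point, and the group mean ± SD in black. The axes start at 0 and differ between panels. Control and RANKL points overlap for all 9 genes, and 6 of them rest on few counts per library.

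Pax6, a paired homeodomain factor, had 17, 16, 16 and 0 counts in the control and 2, 7, 6 and 8 counts in the RANKL libraries. In CPM these were 2.16, 4.29, 4.05 and 0, against 3.23, 4.82, 3.13 and 4.39. The 0 was in the shallowest library. There 3 counts, the limit that a count of 0 allows, are 5.14 CPM on the unscaled library total. That library could therefore have held as much as any other. With counts pooled by group, 49 against 23, the ratio of RANKL to control was 1.30, with an exact 95% interval of 0.757 to 2.18. This ratio was taken on the TMM-scaled library totals. Such intervals and limits hold counting error alone. They leave out the spread between libraries, and copies made by PCR were counted too.

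Pax4, the other paired homeodomain factor of the set, had the lowest level. Its counts were 6, 5, 1 and 0 in control and 0, 3, 4 and 0 in RANKL libraries. In 3 libraries it was at 0. On unscaled library totals their limits were 5.14 CPM in control replicate 4, 4.89 CPM in RANKL replicate 1 and 1.68 CPM in RANKL replicate 4. Pooled counts of 12 and 7 gave a ratio of 1.62 (0.539 to 4.46), so a difference in either direction within these bounds is not resolved at this depth.

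Nkx2-2, a homeodomain factor, had 18, 8, 13 and 7 counts in control and 4, 4, 6 and 5 counts in RANKL libraries. The levels were 2.29, 2.15, 3.29 and 12.0 CPM against 6.46, 2.75, 3.13 and 2.75 CPM. The high value of each group came from its shallowest library, and the others lay within 2.15 to 3.29 CPM. Pooled counts of 46 and 19 gave a ratio of 1.15 (0.634 to 1.99), whereas the mean CPM, which weights libraries equally, was 4.94 ± 4.76 in control and 3.77 ± 1.80 in RANKL libraries (SD, n = 4 each). An antisense gene, Nkx2-2os, overlaps it on the opposite strand, and reads were counted by strand.

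Isl1, a LIM homeodomain factor, had 13, 5, 7 and 2 counts in control and 1, 4, 3 and 3 counts in RANKL libraries, or 1.66, 1.34, 1.77 and 3.44 CPM against 1.61, 2.75, 1.56 and 1.65 CPM. Its pooled counts of 27 and 11 gave a ratio of 1.13 (0.506 to 2.35), against mean levels of 2.05 ± 0.942 and 1.89 ± 0.573 CPM (SD, n = 4 each). For both Nkx2-2 and Isl1 the pooled ratio and the means thus differed in direction. Insm1, a zinc finger repressor, had 22, 13, 7 and 0 counts in control and 1, 2, 4 and 4 counts in RANKL libraries. Its pooled counts of 42 and 11 gave a ratio of 0.726 (0.337 to 1.43). Rfx6, a winged-helix factor of the RFX family, had 9, 3, 9 and 1 counts in control and 1, 4, 5 and 2 in RANKL libraries, and its ratio from 22 and 12 counts was 1.51 (0.682 to 3.19). All of these intervals include 1. Without the filter on low counts, edgeR gave the 6 genes log2 fold changes from -0.46 for Insm1 to 0.61 for Pax4, with unadjusted p of 0.42 and above and adjusted p of 0.68 and above, in a fit that called 10.8% of 23836 genes. The DESeq2 Wald test called none of the 9 members either, against 14.1% of 13668 genes. The lowest unadjusted p of any member in those fits was 0.18, for Neurod1 without the filter.

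**Figure D2:**
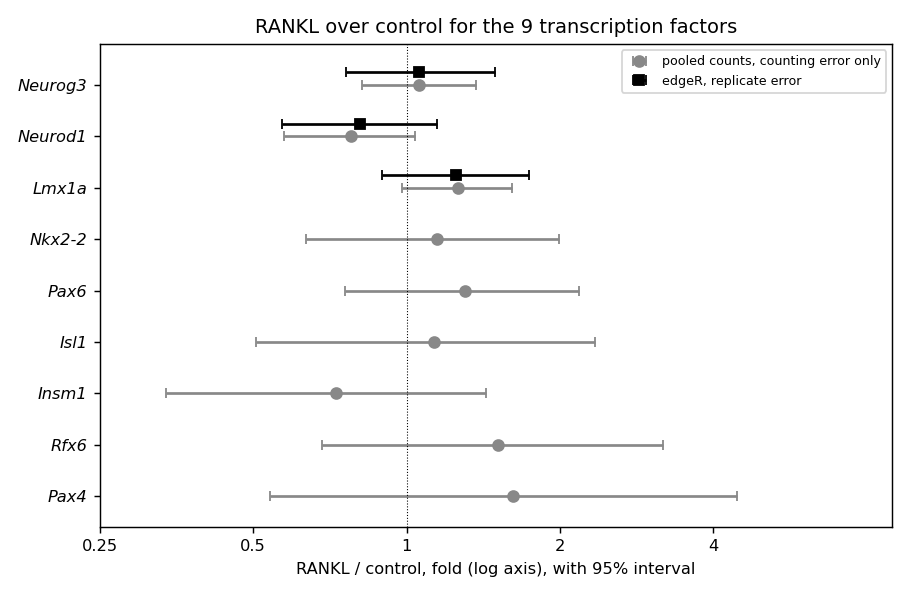
The fold of RANKL over control is on a log axis, with grey circles for pooled counts with exact 95% intervals of counting error and black squares for the edgeR fold with 95% intervals of replicate error, given for the 3 tested genes. Every interval includes 1, and that of Pax4 runs from 0.539 to 4.46.

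QuantSeq reads come from 1 end of each transcript and do not scale with its length, so the CPM of different genes can be set in order without dividing by length. Whether the Cerkl exon that overlaps Neurod1 alters the counts of Neurod1, and so its place, was not tested. In control libraries the order by mean level was Neurog3, Lmx1a, Neurod1, Nkx2-2, Pax6, Isl1, Insm1, Rfx6 and Pax4, and the ranges of all 8 neighbouring pairs overlapped. In RANKL libraries Lmx1a, at 12.9 to 18.7 CPM, lay above Neurod1, at 7.69 to 11.7 CPM, in 4 of 4 libraries without overlap, and Neurod1 lay above Pax6 in the same way. The 3 highest factors held most of the members' reads. Pooled by group, Neurog3 had 26.1% of 840 control and 26.1% of 322 RANKL counts. Neurod1 had 25.5% (exact binomial interval 22.6 to 28.6%) and 18.6% (14.5 to 23.3%), and Lmx1a had 24.9% (22.0 to 27.9%) and 29.5% (24.6 to 34.8%). These intervals hold counting error alone and leave out the spread between libraries. Control replicate 1 gave 392 of the 840 control counts.

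The ratio of Lmx1a to Neurod1 counts within a library, which needs no scaling by depth, was 0.819, 1.48, 0.918 and 0.800 in control and 1.14, 1.29, 1.41 and 2.43 in RANKL libraries. This ratio and those of both genes to Neurog3 were chosen after their values were seen. The groups overlapped at control replicate 2. The mean log2 ratio was higher by 0.63 in RANKL libraries, with an exact two-sided permutation p of 0.114, or 0.342 adjusted over 3 ratios (n = 4 each). The corresponding log2 differences were -0.34 for Neurod1 over Neurog3 (exact permutation p = 0.314, adjusted 0.471) and 0.29 for Lmx1a over Neurog3 (p = 0.543, adjusted 0.543). None of the 3 passed the test, and for Lmx1a over Neurod1 3 of 4 control ratios lay below every RANKL ratio.

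Summed over the 9 members, the level was 51.2 ± 5.17 CPM in control and 56.6 ± 5.21 CPM in RANKL libraries (SD, n = 4 each), with ranges of 44.7 to 56.9 and 50.5 to 63.0 CPM. The ranges overlapped. The sum is a description and was not tested. Of 10071 genes compared, Surf4 and Dbnl were among those nearest to this sum in their pattern over the 8 libraries, with root mean square differences of 0.0610 and 0.0666 in centred log2 (CPM + 1).

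Genes upstream of the members moved in both directions. Among 20 genes of Notch signalling and secretory commitment, 10 were tested, 2 were higher and 4 lower. Over all tested genes 13.6% were higher and 12.4% lower. The median log2 fold change was -0.27, against 0.000174 over all tested genes. Dll1, a Notch ligand made by secretory progenitors, rose from 8.25 ± 0.569 to 21.2 ± 2.13 CPM (log2 1.37, SE 0.22, edgeR adjusted p = 1.5e-05). Rbpj, the DNA-binding partner of the cleaved Notch receptor, rose from 24.3 ± 4.00 to 49.6 ± 5.94 CPM (log2 0.99, SE 0.16, edgeR adjusted p = 1.9e-05). Hes1, a Notch target that represses Atoh1 and Neurog3, fell from 110 ± 14.9 to 78.3 ± 7.34 CPM (log2 -0.49, SE 0.13, edgeR adjusted p = 0.0039). In these 3 genes the 4 RANKL libraries did not overlap the 4 controls. Numb, an inhibitor of Notch, fell by 0.64 on the log2 scale (edgeR adjusted p = 0.0053), and Lfng, which adds sugars to the Notch receptor, fell by 0.74 (adjusted p = 0.0091). The call of Lfng was lost without RANKL replicate 4 (adjusted p = 0.079). The fourth lower gene was Spdef, of goblet and Paneth cell maturation (log2 -0.57, edgeR adjusted p = 0.031), which was named after its values were seen. So was Atoh1 itself, with 6.08 ± 1.91 CPM without and 6.03 ± 1.87 CPM with RANKL, with a log2 fold change of -0.10 and an interval from -0.74 to 0.55 (edgeR adjusted p = 0.86).

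Genes for inhibitors of bHLH dimers rose, and those for the E proteins with which the factors pair were not called. Of 7 listed genes 6 were tested, 3 were higher and 0 lower, against 13.6% higher and 12.4% lower of all tested genes. The median log2 fold change was 0.85. Id4 was below the filter. Id3 rose from 4.05 to 9.80 CPM across controls to 108 to 181 CPM across RANKL libraries (log2 4.23, SE 0.20, edgeR adjusted p = 5.2e-17). Id2 rose from 44.8 ± 5.05 to 237 ± 14.1 CPM (log2 2.43, SE 0.12, edgeR adjusted p = 1.1e-16). Id1 rose from 23.5 ± 9.97 to 89.3 ± 4.02 CPM (log2 1.74, SE 0.16, edgeR adjusted p = 5.6e-10). Id2 and Id3 are genes that the study itself examined in these libraries, so their place in the list is not independent of the direction. Tcf4 and Tcf12, both E proteins, had log2 fold changes of -0.11 (interval -0.35 to 0.14) and -0.09 (-0.32 to 0.15).

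**Figure D3:**
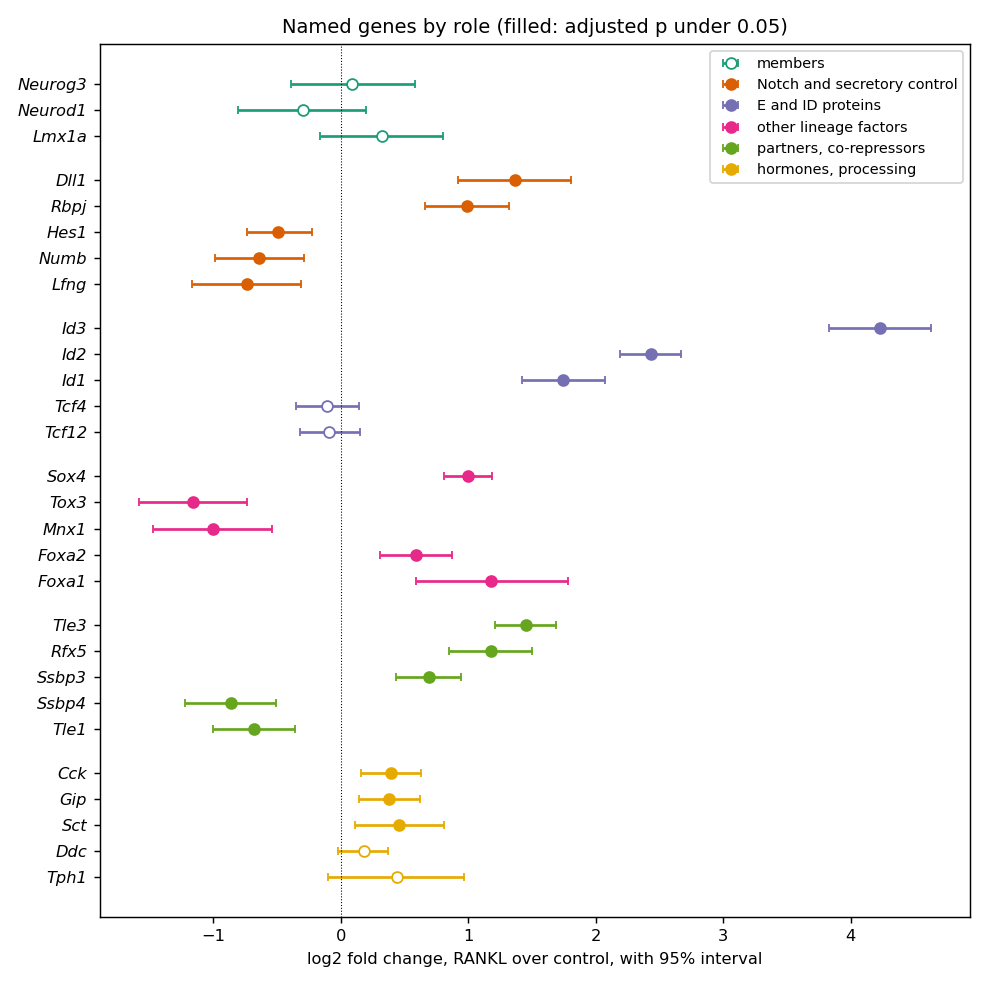
Points are edgeR log2 fold changes of RANKL over control with 95% intervals, coloured by role, and filled points had an adjusted p under 0.05. Open circles for Neurog3, Neurod1 and Lmx1a have intervals that cross 0, while Id3 lies at 4.23 and Tox3 at -1.16.

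Other transcription factors of the lineage, 23 listed and 10 tested, had a median log2 fold change of 0.23. Of the 10, 5 were called, 3 higher and 2 lower, against 13.6% higher and 12.4% lower of all tested genes. Sox4, a factor of early secretory and endocrine progenitors, rose from 419 ± 15.9 to 836 ± 57.9 CPM (log2 1.00, SE 0.09, edgeR adjusted p = 7.4e-10). Foxa1 and Foxa2, forkhead factors required for several enteroendocrine subtypes, rose by log2 fold changes of 1.18 (SE 0.29, adjusted p = 0.0027) and 0.59 (SE 0.14, adjusted p = 0.0017). These genes are not confined to enteroendocrine cells in the gut epithelium. In the other direction, Tox3 fell from 31.6 ± 5.27 to 13.8 ± 2.65 CPM (log2 -1.16, SE 0.21, edgeR adjusted p = 6.7e-05). Mnx1, a homeodomain factor, fell by 1.00 on the log2 scale, from 18.7 ± 2.63 to 9.20 ± 2.01 CPM (SE 0.23, edgeR adjusted p = 0.0012).

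Partners and co-repressors of the members were split. Of 24 listed genes 20 were tested, 4 were higher and 5 lower, against 13.6% higher and 12.4% lower of all tested genes. The median log2 fold change was 0.034. Tle3, a Groucho co-repressor of the kind recruited by NKX2-2 and HES1, rose from 63.0 ± 2.87 to 173 ± 24.2 CPM (log2 1.45, SE 0.12, edgeR adjusted p = 3.6e-11), whereas Tle1 of the same family fell from 53.8 ± 5.95 to 33.6 ± 7.53 CPM (log2 -0.68, SE 0.16, adjusted p = 0.0013). Rfx5, of the RFX family but known for MHC class II transcription, rose by a log2 fold change of 1.18 (SE 0.16, adjusted p = 9.1e-07). Ssbp3 and Ssbp4, which stabilize the LDB1 complexes of LIM homeodomain factors, went in opposite directions. Ssbp3 rose by 0.69 (SE 0.13, edgeR adjusted p = 9.8e-05) and Ssbp4 fell by 0.86 on the log2 scale (SE 0.17, edgeR adjusted p = 0.00027). The Ssbp4 groups overlapped, at 84.3 to 219 CPM and 59.7 to 101 CPM, and its call was lost with DESeq2 (adjusted p = 0.062). Gse1 was the remaining higher gene and Lmo4, Rcor2 and Tle4 the remaining lower ones, named after their values were seen.

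Products of the mature lineage, 26 listed and 15 tested, had a median log2 fold change of 0.18. Among the 15, 3 were higher and 0 lower, against 13.6% higher and 12.4% lower of all tested genes. Cck, which encodes cholecystokinin, rose from 74.6 ± 6.45 to 97.8 ± 3.70 CPM (log2 0.39, SE 0.12, edgeR adjusted p = 0.012). Gip, an incretin, rose from 74.2 ± 3.18 to 95.6 ± 11.0 CPM (log2 0.38, SE 0.12, edgeR adjusted p = 0.015), and without RANKL replicate 4 its adjusted p was 0.082. Without the filter on low counts both calls were lost, at log2 fold changes of 0.35 for Cck (edgeR adjusted p = 0.060) and 0.34 for Gip (adjusted p = 0.073). Sct, secretin, rose by a log2 fold change of 0.46 (SE 0.17, edgeR adjusted p = 0.045), a call that was lost under 10 of 17 alternatives, among them leaving out control replicate 2 or 4 or RANKL replicate 1, 2 or 3 (adjusted p from 0.064 to 0.18). The granins Chga and Chgb, secretory granule proteins common to the lineage, were not called. Chga measured 40.0 ± 2.05 CPM without and 39.1 ± 5.59 CPM with RANKL, with an interval of the log2 fold change from -0.29 to 0.31. Chgb was at 571 ± 61.0 and 549 ± 45.3 CPM, with an interval from -0.25 to 0.16. Ddc, an enzyme of serotonin synthesis, had a log2 fold change of 0.18 (edgeR adjusted p = 0.18), although its groups did not overlap (411 to 477 and 481 to 544 CPM). Some hormone genes had lower values with RANKL and were not called. Gcg had a log2 fold change of -0.26 (edgeR adjusted p = 0.26) and Tac1 of -0.15 (adjusted p = 0.54). Pyy, below the filter, was at 6.31 ± 3.83 CPM without and 2.63 ± 1.85 CPM with RANKL. Gcg, Tac1 and Pyy were named after their values were seen.

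**Figure D4:**
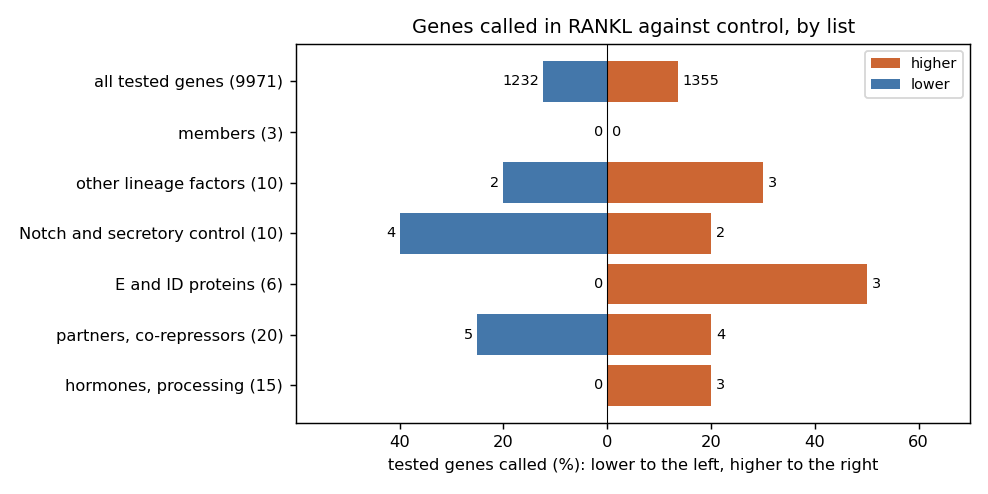
Bars give the percent of tested genes called lower (left, blue) and higher (right, orange) in RANKL against control, with the number of calls at each bar and the number tested in parentheses. The 3 tested members have no call, the E and ID protein list has 3 of 6 higher, and over all 9971 tested genes 13.6% were higher and 12.4% lower.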

How the data were processed

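Before deposit, the authors used BBDuk for trimming, bowtie2 to take out abundant sequences, STAR for alignment to GRCm38 and featureCounts for strand-specific counting on Ensembl release 94. The deposited values are raw counts per gene. Groups came from the sample labels. The authors' own tests used DESeq2. Of 54532 identifiers, 54495 matched GENCODE release M21, the source of coordinates. Symbols came from a separate list of gene names, which held 54409 of the identifiers.

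Counts were tested with edgeR 4.0.16 in R 4.3.3 (its filter on low counts, TMM, quasi-likelihood test, Benjamini-Hochberg over 9971 genes, threshold 0.05). The exact two-sided permutation test used 70 assignments and cannot give p below 0.0286. Adjusted over the 41 named genes, its lowest p was 0.0558. The method was tested on simulated data. The alternatives were other scalings, DESeq2 1.42.0, limma 3.58.1 with voom, no or a stricter filter, a replicate block, each library left out, a threshold of 0.01 and, added after seeing the data, both shallowest libraries left out.

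The members and lists were chosen with earlier results of these data known. Named genes were the 9 members, the 5 genes of lowest adjusted p in each other list, Chga, Chgb and Neurod1, and the 3 nearest patterns, of which 1 is not reported here. Other names are stated as chosen after their values were seen.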

Additional observations from a re-analysis of the deposited data

Results flagged for a closer look

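In 10 of the 84 groups of 4 libraries examined, 1 library stood far from the other 3 in CPM by Dixon's gap criterion, where chance gives about 1 in 20, or 4.2. Of these groups 4 concern the members. Neurod1 was at 7.69 CPM in RANKL replicate 4, next to 11.3 CPM in the nearest library. Isl1 was at 2.75 CPM in RANKL replicate 2, next to 1.65 CPM, on 4 and 3 counts. Nkx2-2 was at 12.0 CPM in control replicate 4, next to 3.29 CPM, and at 6.46 CPM in RANKL replicate 1, next to 3.13 CPM, which are the shallowest libraries of their groups. The others were Sox4 in RANKL replicate 4 (750 CPM, nearest 857), Lfng in control replicate 3 (44.6 CPM, nearest 28.9), Id2 in control replicate 3 (37.3 CPM, nearest 46.7), Cck in control replicate 2 (84.3 CPM, nearest 72.2), Gip in control replicate 1 (78.9 CPM, nearest 73.2) and Ddc in control replicate 3 (411 CPM, nearest 467). Across genes, chi-square per degree of freedom was 12.6 between control replicates 1 and 3 and 8.06 between 2 and 3. It was 3.93 between 1 and 2, and 2.59 to 3.70 in pairs with the shallow replicate 4. The part of control replicate 3 as a whole in the flags of Lfng, Id2 and Ddc was not tested.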

How the results depend on the processing

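No member was called under any alternative that was run. Neurog3 had a log2 fold change between -0.06 and 0.20 with each library left out and of -0.08 without both shallowest libraries. Neurod1 and Lmx1a kept their direction under all alternatives, at -0.37 to -0.15 and 0.22 to 0.52 with each library left out. An adjusted p of 0.01 left 1636 of 2587 genes called, 707 of them lower. With each library left out, 814 to 1234 genes were lower, against 1232 with all libraries, and 7 to 12 in the pathway lists, against 11, with both lowest counts reached without RANKL replicate 4. Without both shallowest libraries 2279 genes were called, 25 of them in the pathway lists against 26. The DESeq2 Wald test called 1926 genes of 13668. The cause of these changes was not tested. Log2 fold changes near 0 changed sign for Chga (-0.03 without the filter, -0.07 to 0.06 with each library left out), Chgb (-0.10 to 0.02, and 0.03 without both shallowest libraries), Surf4 (-0.01 without both shallowest libraries), Dbnl (-0.01 without the filter, -0.02 to 0.07, and -0.06 without both shallowest libraries) and Atoh1 (-0.32 to 0.10).

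Same-numbered libraries did not deviate together (correlations from -0.0334 to 0.101), so the numbers were not taken as pairs. With the replicate number as a block, 2610 genes and 0 members were called, and Neurog3, Neurod1 and Lmx1a had log2 fold changes of 0.15, -0.14 and 0.30. Depth limits the 6 members below the filter, whose pooled ratios have upper bounds from 1.43 to 4.46.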
